A study of Mus musculus with 6 samples.

Results

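The myeloid lectin and paired receptor families are cell-surface receptors through which neutrophils, monocytes, macrophages and dendritic cells read sugars, lipids, sialic acids and proteins on microbes and on damaged or healthy cells. They were taken by symbol from the deposited mouse lung table as protein-coding genes of the numbered Clec genes (C-type lectins), the Cd300 genes, the Lilr and Pir genes, the Siglecs, Trem3 to Trem6 and the Treml genes, the Sirpa and Sirpb genes and the Pilr genes, without Siglecf, Siglech and Clec9a. This gave 56 of 23194 genes, of which 27 were C-type lectins, 8 CD300, 5 LILR and PIR, 5 Siglec, 4 TREM-like, 4 SIRP and 3 PILR genes. The row named Siglec5 carries the Ensembl identifier that GENCODE M21 names Siglecf and was kept under its symbol in the table. The symbols Lilrb4 and Cd300lh are also older names, for identifiers that M21 lists as Gm49339 and Cd300ld3. A symbol rule also gathers genes that are not myeloid receptors, such as the endothelial Clec14a and the secreted Clec3b, and these are described separately.

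The whole left lung of wild-type adult C57BL/6 mice was the source of RNA. In 3 mice, called injured, the left pulmonary artery was ligated for 4 h and reopened for 24 h of reperfusion. The other 3 mice were naive and are not described as operated on, so effects of surgery and of ischemia cannot be told apart. The sample titles give 4 h, while the protocol speaks of 4 or 5 h. The labels name no transgene or other mutation in either group. Libraries held 20062818 to 23638078 counts in injured and 18913487 to 34986276 in naive lungs. The lung markers Sftpc, Ager, Scgb1a1, Pecam1 and Cdh5 were abundant in every library, at 37677 to 41996 summed CPM in injured and 36871 to 48299 in naive lungs. Most of this sum was Scgb1a1 and Sftpc, which overlapped between groups, as did Ager. Pecam1 was lower in every injured lung, at 789 to 912 CPM against 980 to 1066 CPM in naive lungs. Cdh5 was also lower in each, at 1123 to 1248 CPM against 1276 to 1595 CPM. Of all genes tested, 10.6% showed this pattern, and neither gene had an adjusted p under 0.05. Levels are CPM, which are counts relative to the TMM-scaled library size, unless FPKM is named. Lungs are numbered 1 to 3 within a group and their values are given in that order. Each log2 fold change sets injured against naive and is given ± SE, with p from edgeR's quasi-likelihood test adjusted by Benjamini-Hochberg. Genes with an adjusted p under 0.05 were called.

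Many of these receptors are activating or inhibitory, and some of the families hold opposite pairs. Activating members have short tails and couple to the ITAM adaptors DAP12 (Tyrobp) or the Fc receptor gamma chain (Fcer1g), which recruit the kinase Syk, while a few carry a Syk-binding motif of their own. Inhibitory members carry ITIM motifs in their tails, which recruit the tyrosine phosphatases encoded by Ptpn6 and Ptpn11. In lung, such receptors are known from infection and from clearance of dying cells, with Sirpa restraining phagocytosis on contact with CD47 and surfactant proteins.

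Clec4d and Clec4e had the largest rises, and the 250 bases before their RefSeq transcription start sites are shown first, with those of Pirb, the inhibitory receptor with the smallest adjusted p, and of Clec7a, a lectin of another cluster on chromosome 6 that was not called. Capitals mark matches on either strand to GAGGAA, the core bound by the myeloid factor PU.1, or to TTNCNNAA, a loose C/EBP pattern. The windows are from RefSeq on GRCm38.p6, the build named mm10, and are printed in the direction of transcription.
Clec4d, chr6:123261857-123262106, plus strand: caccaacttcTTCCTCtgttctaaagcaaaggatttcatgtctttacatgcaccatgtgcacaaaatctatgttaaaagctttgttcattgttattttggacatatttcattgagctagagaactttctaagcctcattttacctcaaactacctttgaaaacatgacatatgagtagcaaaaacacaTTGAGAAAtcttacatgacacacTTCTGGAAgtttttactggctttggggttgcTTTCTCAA
Clec4e, chr6:123289872-123290121, minus strand: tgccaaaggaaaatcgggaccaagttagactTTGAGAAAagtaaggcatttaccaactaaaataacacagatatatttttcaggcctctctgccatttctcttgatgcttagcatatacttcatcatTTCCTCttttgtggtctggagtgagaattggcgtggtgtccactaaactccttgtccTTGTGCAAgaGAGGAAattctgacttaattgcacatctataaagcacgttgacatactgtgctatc
Pirb, chr7:3720383-3720632, minus strand: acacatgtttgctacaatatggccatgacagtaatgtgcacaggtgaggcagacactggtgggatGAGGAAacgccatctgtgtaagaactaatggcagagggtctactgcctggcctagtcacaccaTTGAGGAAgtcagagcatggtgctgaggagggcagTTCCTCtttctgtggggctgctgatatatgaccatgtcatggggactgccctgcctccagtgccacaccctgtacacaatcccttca
Clec7a, chr6:129472780-129473029, minus strand: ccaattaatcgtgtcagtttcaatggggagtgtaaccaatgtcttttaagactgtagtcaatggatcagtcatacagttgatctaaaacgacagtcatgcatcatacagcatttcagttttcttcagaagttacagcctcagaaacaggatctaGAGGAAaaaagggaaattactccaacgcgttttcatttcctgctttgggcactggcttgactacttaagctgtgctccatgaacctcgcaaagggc

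Clec4d and Clec4e each held matches to both patterns, Clec7a held 1 GAGGAA and no TTNCNNAA, and in Pirb the TTNCNNAA match overlapped 1 of its GAGGAA matches. Over the 41 members with a window in that table, GAGGAA was present in 56.1%, including 71.4% of the 14 called higher and 50% of the 22 tested but not called, against 23.3% of 32817 mouse windows of the same length. TTNCNNAA was present in 65.9% of the members' windows, in 85.7% of those called higher and in 54.5% of those not called, against 36.8% of all windows. The NF-kB pattern, GGGA, any base, then TTTCC, was in 1 member's window and in none of those called higher, and it was in 0.357% of all windows. The AP-1 pattern TGANTCA was in 7.32% of the members' windows, in 0% of those called higher and in 4.55% of those not called, against 6.75% of all windows. These are letter matches in a short window and were not tested, and 6 of the 41 windows start more than 100 bases from the 5′ end the deposited table gives.

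Of the 56 members, 47 had enough counts to be tested, and 16 were called higher and 1 lower in injured lungs. Over all 15486 genes tested, 2.16% were called higher and 0.956% lower. The median log2 fold change was 0.48 over the 47 members tested and -0.00096 over all genes tested. In 24 members every injured lung was above every naive lung, and in 4 every injured lung was below, where 12.3% and 10.6% of all genes tested showed these patterns. The authors' deposited table gave an adjusted p to 48 members, of which 18 were higher and 2 lower at an adjusted p under 0.05, against 3.61% and 2.54% of the genes it adjusted. Those 18 and 2 hold all 16 and the 1 called here, and the others are Lilra6, Pilrb2 and Cd300lg. With no filter on low counts 18 members were called higher and 2 lower, against 1.98% and 1.16% of all genes, and with DESeq2 18 and 2, against 3.61% and 2.49%. The replicate block gave 17 and 1, against 2.67% and 1.34% of all genes. There were 16 and 1 with DESeq2's size factors (2.13% and 1.01% of all genes), library size alone (2.29% and 0.956%), a filter of 1 CPM in 3 libraries (2.29% and 1.04%) and limma-voom (1.91% and 0.846%). Leaving out injured lungs 1, 2 and 3 in turn gave 9, 14 and 16 members called higher, against 1.09%, 1.57% and 2.12% of all genes, and 1 lower each time, against 0.304%, 0.558% and 0.828%. Leaving out naive lungs 1, 2 and 3 gave 16, 11 and 14 higher, against 1.38%, 0.918% and 1.87%, and 1, 1 and 2 lower, against 0.834%, 0.317% and 0.929%.

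**Figure D1:**
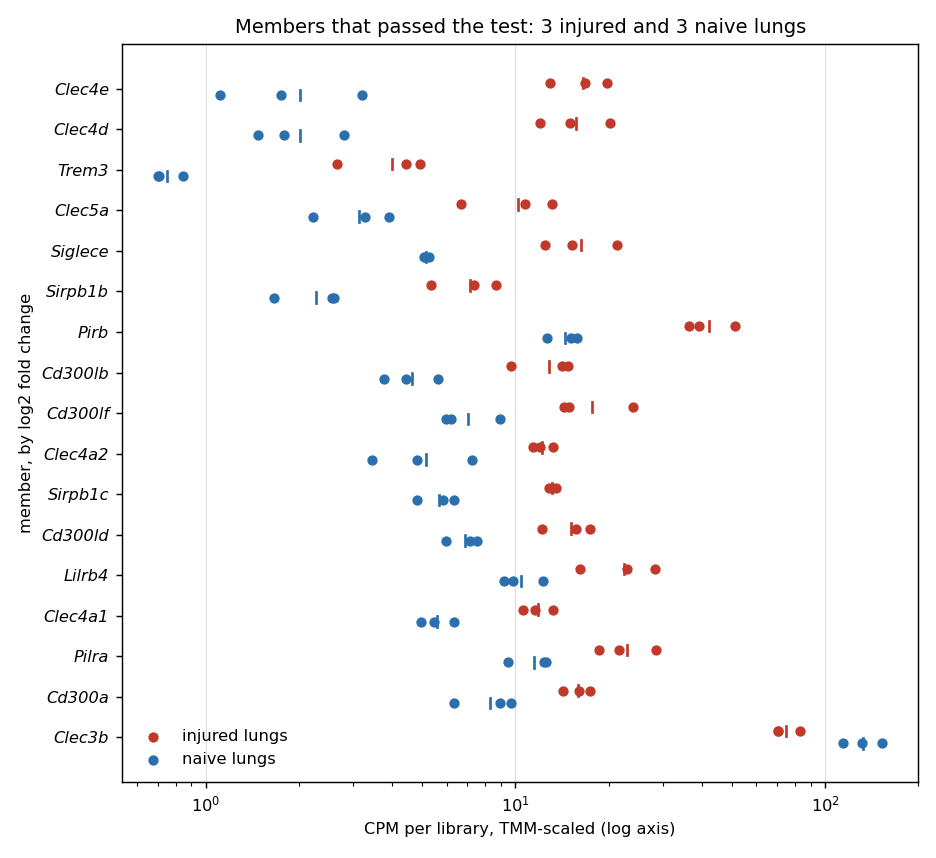
CPM per library on a log axis for the 17 called members, ordered by log2 fold change, with 1 point a lung (injured above naive in each row) and a bar at each group's mean. The injured points lie to the right of the naive points for 16 members and to the left for Clec3b.

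In whole-lung RNA, more transcripts of a receptor per cell and more cells that carry it cannot be told apart. Of 8 neutrophil markers, 7 were called higher and 0 lower, and their summed level was 1359, 1135 and 609 CPM in injured lungs, against 93.1, 58.2 and 74.9 CPM in naive lungs. Ly6g, a defining neutrophil marker, had 6.25, 6.96 and 2.24 CPM in injured lungs and was near 0 in naive lungs, at 0.0672, 0.106 and 0.293 CPM. Of 6 monocyte markers, 5 were called higher, with sums of 241, 255 and 274 CPM in injured lungs and 119, 126 and 91.4 CPM in naive lungs. Among injured lungs, lung 3 thus had the lowest sum of neutrophil markers and the highest sum of monocyte markers. That monocyte order came from Vcan, at 42.7, 40.5 and 82.4 CPM in injured lungs. F13a1 was also highest in lung 3, at 68.5, 75.9 and 77.0 CPM, while Ly6c2, Ccr2, Plac8 and Ms4a4c were lowest there. None of the 7 dendritic cell, 4 B cell or 4 NK cell markers was called, and their summed ranges were 86.4 to 94.1, 73.8 to 79.9 and 9.53 to 15.0 CPM in injured lungs and 103 to 115, 78.6 to 101 and 10.3 to 20.9 CPM in naive lungs. At an unadjusted p under 0.05 these lists had 3, 1 and 1 members, where 16.7% of all genes tested were under it. Every marker on these lists had a negative log2 fold change, where 49.8% of all genes tested were positive. Every injured lung was below every naive lung in 4 dendritic cell, 2 B cell and 0 NK cell markers, against 10.6% of all genes tested. Of 7 alveolar macrophage markers, which include the member Siglec5, only Chil3 was called higher. The list summed to 1446 to 1528 CPM in injured and 832 to 1110 CPM in naive lungs. Most of this was Chil3, at 1270, 1264 and 1146 CPM in injured and 692, 874 and 632 CPM in naive lungs. Marco and Atp6v0d2 were higher in every injured lung but not called, and Ear2, Krt79, Siglec5 and Plet1 overlapped between groups. The 5 platelet markers summed to 40.3 to 53.0 CPM in injured and 16.9 to 40.0 CPM in naive lungs. Only Pf4 was called higher, at 15.3, 16.9 and 29.0 CPM in injured and 7.29, 5.61 and 6.03 CPM in naive lungs. Ppbp, Itga2b, Gp9 and Gp1ba overlapped between groups. The 3 eosinophil markers, all below the count filter, summed to 1.49 to 1.69 CPM in injured and 0.264 to 0.437 CPM in naive lungs. None of 3 heart muscle markers was called (1 at an unadjusted p under 0.05), and they varied within groups, at 107.8 to 488 CPM in injured and 367 to 648 CPM in naive lungs. The part of these cells in the receptor changes was not tested.

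Among the 16 members called higher, injured lung 1 had the highest level of the injured lungs in 15. In 9 of them (Cd300a, Cd300lb, Cd300ld, Clec4a2, Pirb, Siglece, Sirpb1b, Sirpb1c and Trem3) lung 3 was the lowest injured lung. Lung 3 was also lowest for the neutrophil markers' sum and for the monocyte markers Ly6c2, Ccr2, Plac8 and Ms4a4c, but not for F13a1 or Vcan. What sets these orders was not tested. For 6 others (Cd300lf, Clec4d, Clec4e, Clec5a, Lilrb4 and Pilra) lung 2 was the lowest. Clec4a1 alone was highest in lung 3.

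Clec4e encodes Mincle, a receptor for microbial glycolipids and for a nuclear protein released by dead cells, and Clec4d encodes its partner lectin MCL. Both couple to the Fc receptor gamma chain. Clec4e (ENSMUSG00000030142, chromosome 6, 123281789 to 123289870, minus strand) had 19.7, 12.9 and 16.8 CPM in injured lungs, against 3.19, 1.75 and 1.11 CPM in naive lungs. Every injured lung was above every naive lung, and the gene rose by 3.03 ± 0.36 log2 units (adjusted p = 0.0062). Clec4d (ENSMUSG00000030144, chromosome 6, 123262107 to 123275268, plus strand) had 20.1, 12.0 and 15.0 CPM in injured and 2.79, 1.48 and 1.78 CPM in naive lungs. It rose by 2.94 ± 0.28 log2 units (adjusted p = 0.000878), with naive lung 1 and injured lung 1 the highest of their groups for both lectins. Per gene length, Clec4d had a mean level of 11.8 ± 3.09 FPKM in injured and 1.5 ± 0.526 FPKM in naive lungs (SD, n = 3 each), which put it at rank 10 of the members in injured and rank 32 in naive lungs. The FPKM ratio of Clec4e to Clec4d was 0.294 ± 0.0201 in injured and 0.273 ± 0.0866 in naive lungs (SD, n = 3 each), a difference smaller than the spread among naive lungs.

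Both genes sit at one end of a run of 9 Clec4 members within 368 kb of chromosome 6, known as the Dectin-2 cluster. Of its 7 tested members 4 were called higher and all 7 had positive log2 fold changes, with 2.16% of all genes called higher and 49.8% positive. Clec4a2, the inhibitory ITIM lectin DCIR, had 13.2, 12.0 and 11.4 CPM in injured and 7.23, 4.81 and 3.45 CPM in naive lungs, with no overlap (log2 fold 1.24 ± 0.25, adjusted p = 0.0284). Clec4a1, a close relative of DCIR at the other end of the cluster, rose, with 10.6, 11.6 and 13.2 CPM in injured and 6.32, 5.45 and 4.97 CPM in naive lungs (log2 fold 1.08 ± 0.17, adjusted p = 0.00893). Clec4n, which encodes Dectin-2, the receptor for fungal mannans, lies next to Clec4d and was not called. It had 21.1, 16.0 and 26.9 CPM in injured and 15.2, 16.2 and 11.2 CPM in naive lungs, and injured lung 2 lay inside the naive range (log2 fold 0.59 ± 0.21, adjusted p = 0.195). Clec4a3, a further DCIR relative, had 19.4, 18.5 and 17.2 CPM in injured and 14.6, 14.0 and 10.9 CPM in naive lungs without overlap, but was not called (log2 fold 0.48 ± 0.14, adjusted p = 0.107). The differences between neighbours were not tested. Clec4a4 and Clec4b2 had 12 and 4 counts over all 6 libraries and were not tested. The call of Clec4a2 was lost without any 1 of naive lung 2, injured lung 1 and injured lung 2 (highest adjusted p 0.132).

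A further run of 9 members, 585 kb long, lies on the same chromosome and holds Clec2d, Clec2e, Clec2g, Clec2i and the Dectin-1 cluster. None of its 7 tested members was called, and 3 of the 7 had positive log2 fold changes. Clec7a encodes Dectin-1, a receptor for fungal beta-glucan with its own Syk-binding motif, and it was at 46.4, 35.8 and 22.2 CPM in injured lungs and 32.9, 32.2 and 21.1 CPM in naive lungs. The groups overlapped, and the 95% interval of its log2 fold change was -0.44 to 0.99. Clec12a, an inhibitory lectin that senses uric acid crystals, had 13.9, 10.3 and 9.11 CPM in injured and 9.18, 8.62 and 7.14 CPM in naive lungs, with injured lung 3 just under naive lung 1 (log2 fold 0.42 ± 0.19, adjusted p = 0.312). Clec2d, which encodes a ligand of inhibitory NK cell receptors, was abundant at 125, 105 and 82.2 CPM in injured and 157, 128 and 107.7 CPM in naive lungs (log2 fold -0.33 ± 0.18, adjusted p = 0.425). Clec1b, the platelet receptor for podoplanin, had 6.0, 5.54 and 3.12 CPM in injured and 7.02, 3.65 and 3.28 CPM in naive lungs. It had a log2 fold change of 0.06 ± 0.35, and its sign turned in 4 of the 6 fits that left out 1 library, where it ran from -0.15 to 0.49. Exons of Clec1b overlap those of Clec9a on the same strand in M21, so reads there could belong to either gene. Clec9a was more abundant, at 33.0 to 40.5 CPM in injured and 31.7 to 45.2 CPM in naive lungs.

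**Figure D2:**
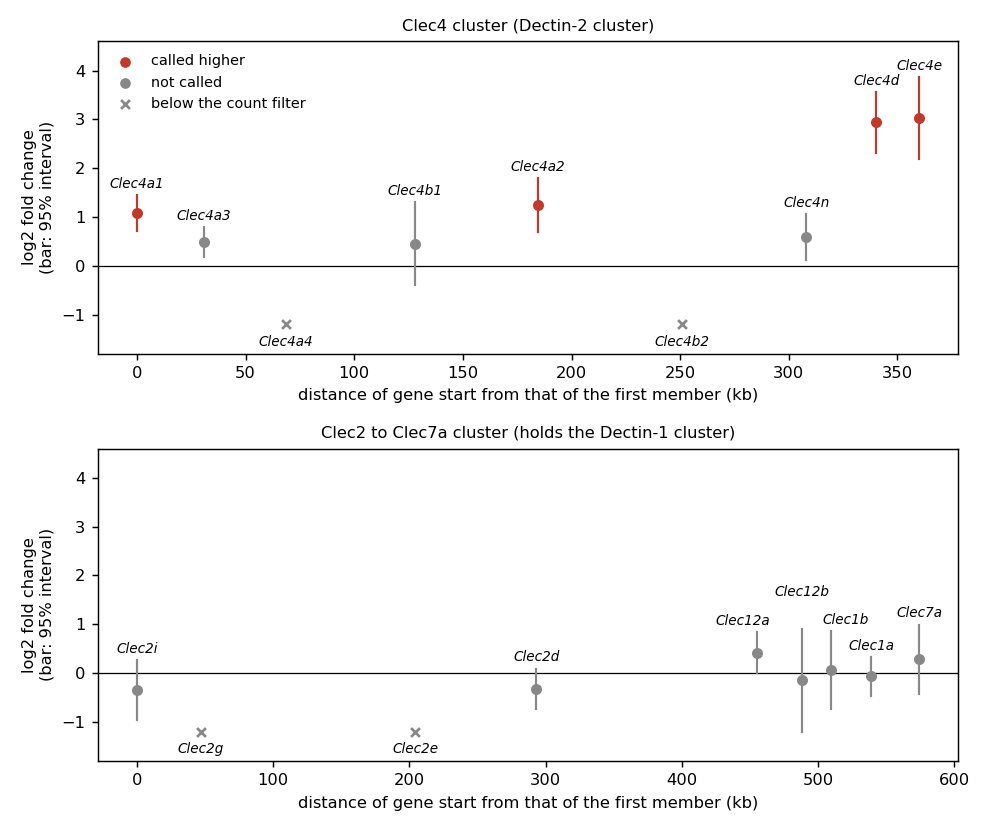
Log2 fold change, injured against naive (bar, 95% interval) against the distance in kb of each gene's lower coordinate from that of the first member. The upper panel shows the Clec4 run and the lower panel the run from Clec2i to Clec7a, with crosses for members below the count filter. In the upper panel 4 of 7 tested members are called higher, with Clec4d and Clec4e near 3, and in the lower panel none of 7 is called.

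Outside these runs, Clec5a, an activating lectin that couples to DAP12, had 13.1, 6.69 and 10.7 CPM in injured lungs and 3.90, 3.28 and 2.22 CPM in naive lungs. It rose by 1.70 ± 0.29 log2 units (adjusted p = 0.0161), and the call was lost without naive lung 2 or injured lung 1 (highest adjusted p 0.0758). Clec10a, a galactose-type lectin of dendritic cells and macrophages, was not called and had 4.56, 5.49 and 5.36 CPM in injured and 3.60, 4.81 and 4.33 CPM in naive lungs (log2 fold 0.28 ± 0.20, adjusted p = 0.548).

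By role, 8 of 20 tested activating members and 7 of 12 tested inhibitory members were called higher, and none of either was called lower, against 2.16% higher over all genes tested. Their median log2 fold changes were 1.03 and 0.97. The 15 tested members assigned to neither role held 1 higher call, Clec4a1, and the 1 lower call, with a median of 0.09. Roles came from a list and were not checked on protein sequences. In it the uncalled Clec2i counted as activating, the uncalled Clec4b1 as neither, and the called Lilrb4 as inhibitory by its symbol, so the group sizes depend on such choices.

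**Figure D3:**
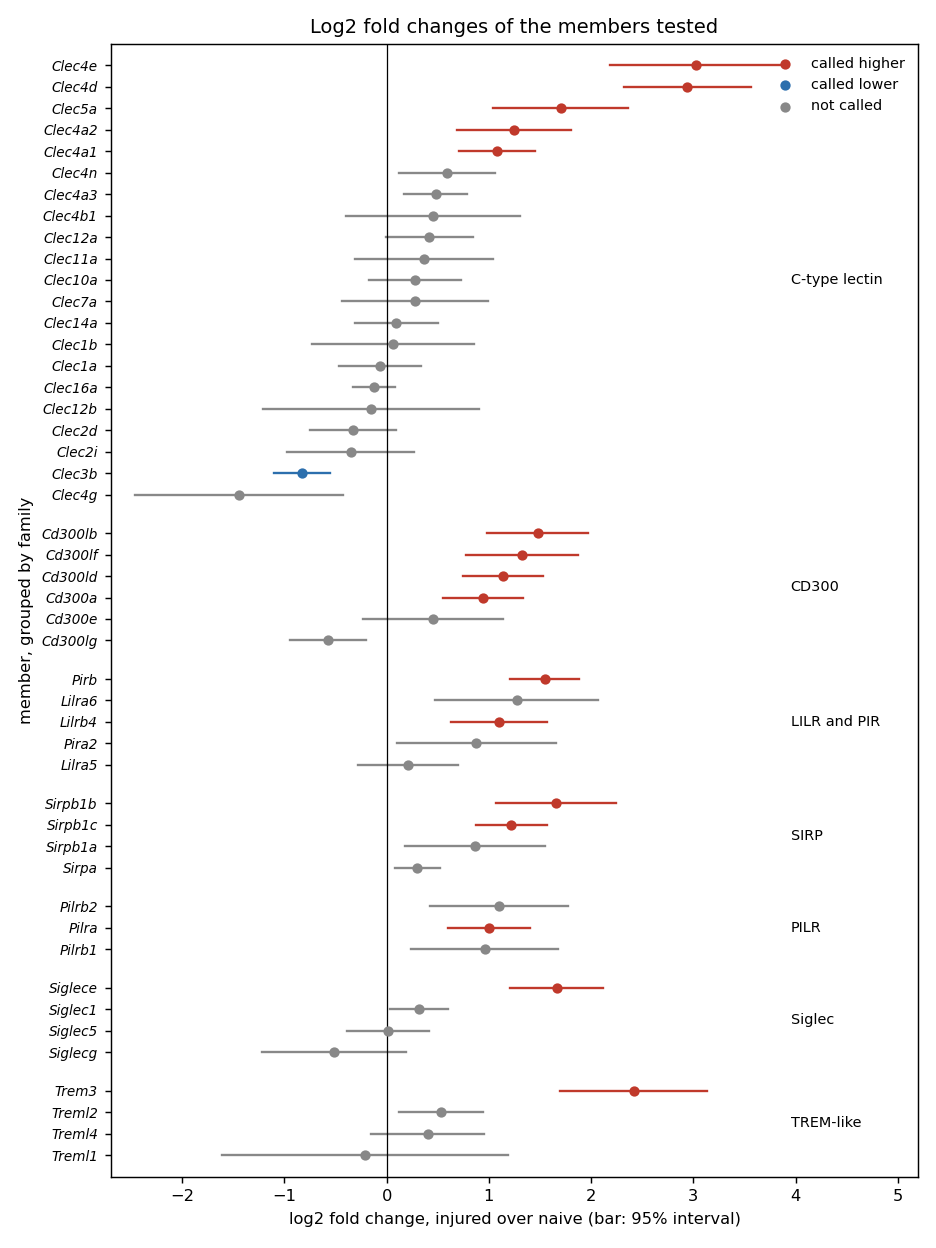
Log2 fold change and 95% interval of each of the 47 members tested, injured against naive, grouped by family, in red where called higher, blue where called lower and grey where not called. Called members occur in all 7 families, and the C-type lectins range from -1.45 for Clec4g to 3.03 for Clec4e.

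The LILR and PIR genes have human relatives that bind MHC class I, as does Pirb, an inhibitory ITIM receptor of myeloid and B cells. Pirb (ENSMUSG00000058818, chromosome 7, 3711409 to 3720391, minus strand) had 51.4, 39.3 and 36.4 CPM in injured lungs and 15.8, 15.1 and 12.6 CPM in naive lungs. The groups did not overlap, and the gene rose by 1.55 ± 0.15 log2 units (adjusted p = 0.000892). Its activating counterparts were not called. Lilra6 had 5.11, 4.17 and 2.53 CPM in injured and 1.85, 2.06 and 1.02 CPM in naive lungs without overlap (log2 fold 1.27 ± 0.35, adjusted p = 0.0975), and it passed the test by DESeq2, with no count filter, with the replicate block and without injured lung 3. Pira2 had 6.05, 3.81 and 2.66 CPM in injured and 2.52, 2.75 and 1.58 CPM in naive lungs (log2 fold 0.88 ± 0.35, adjusted p = 0.239). The FPKM sum of Pira2 and Lilra6 was 0.240 ± 0.0505 of that of Pirb in injured and 0.338 ± 0.0723 in naive lungs (SD, n = 3 each). The groups overlapped in this ratio, with naive lung 3 at 0.261 and injured lung 1 at 0.277. These genes are near copies. Of the 100-base stretches of their GENCODE M21 transcripts, 84.1% for Pira2, 20.7% for Pirb and 11.9% for Lilra6 occur in transcripts of other genes, so counts could be split or lost among them, and the windows before the start sites of Pira2 and Lilra6 are 95.2% identical. The row named Lilrb4, a symbol used for the inhibitory receptor gp49B, had 28.3, 16.2 and 22.9 CPM in injured and 12.3, 9.84 and 9.22 CPM in naive lungs (log2 fold 1.10 ± 0.21, adjusted p = 0.0249). It shares 94.1% of such stretches with Lilrb4a and Lilr4b, and its exons overlap both on the same strand in M21. Its counts therefore cannot be assigned to gp49B alone. The call was lost without naive lung 2 or 3 or injured lung 1 or 3 (highest adjusted p 0.119).

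The CD300 receptors bind phosphatidylserine and other lipids, including those exposed on dying cells. Of 6 tested CD300 members 4 were called higher and 0 lower, against 2.16% and 0.956% of all genes tested, and all 4 lie within 244 kb of chromosome 11. The activating Cd300lb, which couples to DAP12, had 14.8, 14.1 and 9.66 CPM in injured and 5.65, 4.44 and 3.77 CPM in naive lungs (log2 fold 1.48 ± 0.22, adjusted p = 0.00788). Cd300ld, an activating receptor that couples to the Fc receptor gamma chain, had 17.5, 15.7 and 12.1 CPM in injured and 7.5, 7.14 and 5.97 CPM in naive lungs (log2 fold 1.14 ± 0.17, adjusted p = 0.00893). Both activating members had every injured lung above every naive lung. The inhibitory Cd300lf had 24.0, 14.3 and 14.8 CPM in injured and 8.94, 5.98 and 6.20 CPM in naive lungs (log2 fold 1.32 ± 0.24, adjusted p = 0.0221). The inhibitory Cd300a had 17.4, 16.0 and 14.3 CPM in injured and 8.91, 9.68 and 6.35 CPM in naive lungs (log2 fold 0.94 ± 0.18, adjusted p = 0.0213). The groups did not overlap for either, but the call of Cd300lf was lost without naive lung 2 or 3 or injured lung 1 (highest adjusted p 0.105) and that of Cd300a without injured lung 1 or 2 (highest adjusted p 0.098). Cd300c and Cd300lh were below the count filter, with 24 and 57 counts over all libraries.

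The SIRP genes set an inhibitory receptor against DAP12-coupled copies. Sirpa, the CD47 receptor, was the most abundant inhibitory member per gene length, at 46.7 ± 4.77 FPKM in injured and 37.5 ± 2.37 FPKM in naive lungs (SD, n = 3 each). It had 205, 181 and 168 CPM in injured and 148, 159 and 144 CPM in naive lungs without overlap, but was not called (log2 fold 0.30 ± 0.10, adjusted p = 0.153). Among its activating relatives, Sirpb1b had 8.63, 7.36 and 5.36 CPM in injured and 2.55, 2.59 and 1.67 CPM in naive lungs (log2 fold 1.66 ± 0.26, adjusted p = 0.0105). Sirpb1c rose with little spread, at 13.5, 13.1 and 12.8 CPM in injured and 6.32, 5.82 and 4.83 CPM in naive lungs (log2 fold 1.22 ± 0.15, adjusted p = 0.00435). Sirpb1a, with 2.43, 2.26 and 1.73 CPM in injured and 1.45, 1.11 and 0.966 CPM in naive lungs, was not called (log2 fold 0.86 ± 0.31, adjusted p = 0.191). The FPKM of the 3 activating genes summed to 0.253 ± 0.0121 of that of Sirpa in injured and 0.126 ± 0.0199 in naive lungs (SD, n = 3 each), and this ratio was higher in each injured lung than in any naive lung. The 3 copies share 23.0% to 39.3% of their 100-base stretches with transcripts of other genes, so their counts are uncertain. The call of Sirpb1b was lost without injured lung 1 (adjusted p = 0.0539).

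The PILR pair is built the same way, with the inhibitory Pilra and the DAP12-coupled Pilrb1 and Pilrb2 within 49.8 kb of chromosome 5. Pilra had 28.5, 18.6 and 21.6 CPM in injured and 12.4, 12.6 and 9.48 CPM in naive lungs (log2 fold 1.00 ± 0.18, adjusted p = 0.0188), and its call was lost without naive lung 2 or injured lung 1 (highest adjusted p 0.0663). Pilrb2 had 7.0, 3.19 and 4.51 CPM in injured and 2.35, 2.06 and 2.40 CPM in naive lungs (log2 fold 1.10 ± 0.30, adjusted p = 0.0915), and it was called higher with no count filter and by DESeq2. Pilrb1 had 4.07, 2.61 and 4.6 CPM in injured and 1.28, 2.33 and 2.22 CPM in naive lungs (log2 fold 0.96 ± 0.32, adjusted p = 0.164). All 3 had every injured lung above every naive lung, and the FPKM ratio of the 2 activating genes to Pilra was 0.716 ± 0.119 in injured and 0.729 ± 0.213 in naive lungs (SD, n = 3 each). The windows before the Pilrb1 and Pilrb2 start sites are 98.4% identical. Exons of Pilra overlap Zcwpw1 on the opposite strand in M21, and those of Pilrb1, Pilrb2, Sirpb1b and Lilrb4 each overlap a predicted gene on the opposite strand. No strand setting is given, so reads of these overlaps could belong to either gene.

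Siglecs bind sialic acids on a cell's own glycans. Siglece (ENSMUSG00000030474, chromosome 7, 43651070 to 43660161, minus strand), the inhibitory Siglec of mouse neutrophils and macrophages, had 21.3, 15.2 and 12.4 CPM in injured lungs and a tight 5.28, 5.08 and 5.09 CPM in naive lungs (log2 fold 1.66 ± 0.20, adjusted p = 0.00344). The other Siglecs were not called. Siglec1, or sialoadhesin, a macrophage receptor without an inhibitory motif, had 30.7, 29.6 and 27.5 CPM in injured and 24.7, 26.4 and 19.5 CPM in naive lungs (log2 fold 0.32 ± 0.13, adjusted p = 0.247). Siglec5, which M21 names Siglecf and which marks alveolar macrophages and eosinophils, had 20.3, 24.0 and 14.1 CPM in injured and 19.9, 17.6 and 20.3 CPM in naive lungs (log2 fold 0.01 ± 0.18, 95% interval -0.39 to 0.42). Siglecg, an inhibitory Siglec of B cells, had 3.72, 1.95 and 2.07 CPM in injured and 4.30, 2.70 and 3.98 CPM in naive lungs (log2 fold -0.52 ± 0.31, adjusted p = 0.462).

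Of the TREM-like genes, which lie within 119 kb of chromosome 17, Trem3 rose. Trem3 (ENSMUSG00000041754, chromosome 17, 48247777 to 48258841, plus strand), an activating DAP12-coupled receptor of mouse myeloid cells, had 4.91, 4.43 and 2.66 CPM in injured lungs and 0.706, 0.846 and 0.702 CPM in naive lungs. Its log2 fold change was 2.41 ± 0.32 (adjusted p = 0.00518), on counts of 63 to 100 in each injured and 16 to 24 in each naive library. Treml4, a receptor that binds dead cells, had 8.48, 5.05 and 6.79 CPM in injured and 5.65, 5.92 and 3.86 CPM in naive lungs (log2 fold 0.40 ± 0.25, adjusted p = 0.47). Treml2, found on both myeloid and lymphoid cells, had 11.6, 10.5 and 9.49 CPM in injured and 7.53, 5.61 and 8.54 CPM in naive lungs (log2 fold 0.53 ± 0.18, adjusted p = 0.179).

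Per gene length, Clec14a, Clec2d and Clec3b had the highest levels of all members in both groups. Clec3b (ENSMUSG00000025784, chromosome 9, 123150946 to 123157430, plus strand) encodes tetranectin, a secreted plasminogen-binding protein, and was the only member called lower. It had 70.7, 70.6 and 83.2 CPM in injured and 114, 132 and 153 CPM in naive lungs, and it fell with a log2 fold change of -0.83 ± 0.12 (adjusted p = 0.00745). Per gene length it was at 75.9 ± 7.26 FPKM in injured and 133 ± 17.3 FPKM in naive lungs (SD, n = 3 each), rank 3 of the members in injured and rank 1 in naive lungs. Clec14a, an endothelial receptor for the matrix protein encoded by Mmrn2, had 670, 664 and 506 CPM in injured and 674, 620 and 431 CPM in naive lungs. Its groups overlapped (log2 fold 0.09 ± 0.18, 95% interval -0.31 to 0.50), and the sign turned without naive lung 3, at -0.08. Cd300lg, an endothelial member of the CD300 family that lies apart from the others on chromosome 11, had 14.5, 13 and 13.8 CPM in injured and 22.9, 23.5 and 15.3 CPM in naive lungs. It was not called (log2 fold -0.57 ± 0.17, adjusted p = 0.112) but was called lower by DESeq2, with no count filter and without naive lung 3. Clec4g, a lectin of sinusoidal endothelium, had 5, 7 and 6 counts in injured and 16, 13 and 34 counts in naive libraries and was not called (log2 fold -1.45 ± 0.45, adjusted p = 0.138). Its exons overlap an antisense gene in M21. Clec1a, also found on endothelium, had 136, 167 and 149.6 CPM in injured and 178, 181 and 115 CPM in naive lungs, and the groups overlapped (log2 fold -0.07 ± 0.17, adjusted p = 0.898).

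None of the remaining tested members was called. Cd300e, an activating CD300 receptor of monocytes, had a log2 fold change of 0.45 ± 0.31 (adjusted p = 0.517). Lilra5 had 10.1, 14.3 and 7.64 CPM in injured and 8.54, 9.10 and 10.1 CPM in naive lungs (log2 fold 0.21 ± 0.22, adjusted p = 0.704). Treml1, a receptor of platelet granules, was low and varied widely, with 2.13, 1.2 and 0.464 CPM in injured and 2.45, 1.22 and 0.673 CPM in naive lungs. Log2 fold changes were 0.45 ± 0.38 for Clec4b1, 0.37 ± 0.29 for the secreted growth factor Clec11a, -0.12 ± 0.09 for the intracellular protein Clec16a, -0.15 ± 0.47 for Clec12b and -0.35 ± 0.28 for Clec2i. Of the 9 members below the count filter, Clec2l had 27, Clec2e 19, Clec2g 15, Clec3a 1 and Siglec15 1 count over all libraries, besides the 4 named above.

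**Figure D4:**
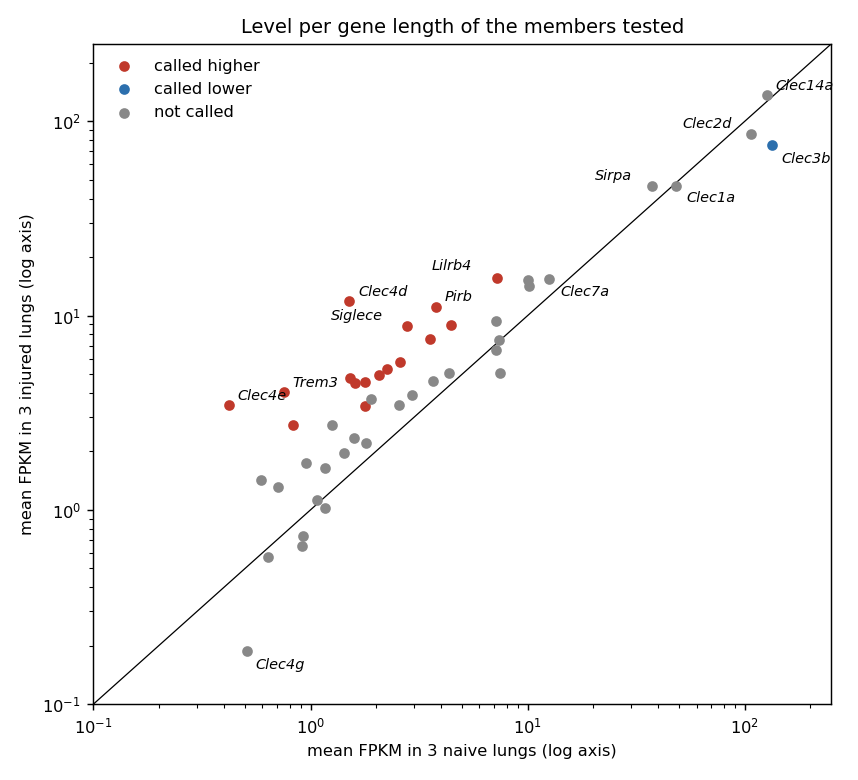
Mean FPKM in 3 injured lungs against mean FPKM in 3 naive lungs, both on log axes, for the 47 members tested, with the line of equal levels. Clec14a, Clec2d and Clec3b are at the top right, at 75.9 to 136 FPKM in injured and 107.3 to 133 FPKM in naive lungs, and Clec4d stands above the line at 11.8 FPKM in injured and 1.5 FPKM in naive lungs.

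The signalling genes behind these receptors were examined as a list of 26 adaptors, kinases and phosphatases, all of which were tested. Of these, 6 were called higher and 0 lower, against 2.16% and 0.956% of all genes, and the median log2 fold change was 0.27. The kinase Fgr, of the Src family in myeloid cells, had 55.8, 43.9 and 36.1 CPM in injured and 24.7, 22.6 and 15.4 CPM in naive lungs (log2 fold 1.11 ± 0.21, adjusted p = 0.0322). Fcer1g, the adaptor of Clec4d, Clec4e and Cd300ld, had 81.9, 58.7 and 71.0 CPM in injured and 36.5, 40.7 and 36.2 CPM in naive lungs (log2 fold 0.90 ± 0.13, adjusted p = 0.00629). Tyrobp, the adaptor of Clec5a, Trem3 and the activating SIRP and PILR genes, had 88.2, 73.6 and 77.0 CPM in injured and 45.3, 44.7 and 39.4 CPM in naive lungs (log2 fold 0.88 ± 0.10, adjusted p = 0.00243). Both adaptors thus had every injured lung above every naive lung. The adaptor Lcp2 had 29.6, 24.1 and 22.9 CPM in injured and 15.6, 17.7 and 13.5 CPM in naive lungs and also rose (log2 fold 0.72 ± 0.14, adjusted p = 0.0259). Vav1 (log2 fold 0.71 ± 0.12, adjusted p = 0.0115) and the phosphatase gene Ptpn6 (log2 fold 0.50 ± 0.11, adjusted p = 0.0418) were also called higher. Ptpn11, the other phosphatase gene of the ITIM receptors, was not called (log2 fold 0.06 ± 0.08, adjusted p = 0.789). Syk itself was not called (log2 fold 0.30 ± 0.12, adjusted p = 0.231). At an unadjusted p under 0.05 there were 13 genes of the list, against 16.7% of all genes tested. Other fits on all libraries called 5 to 9 of the list higher, with 9 by DESeq2 (3.61% of all genes), with no count filter (1.98%) and with the replicate block (2.67%) and 5 by limma-voom (1.91%), and each called 0 lower. The number called higher was 3 without naive lung 1, injured lung 1 or injured lung 2, against 1.38%, 1.09% and 1.57% of all genes, and 2 without naive lung 2, against 0.918%.

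Of 19 genes for described binding partners of the members, 17 were tested, 0 were called higher and 1 lower, against 2.16% and 0.956% of all genes tested. At an unadjusted p under 0.05 there were 7, against 16.7% of all genes, and DESeq2 called 4 higher, against 3.61%. Klrb1b, an inhibitory NK cell receptor that binds the Clec2d protein, fell with 4.52, 4.39 and 3.67 CPM in injured and 8.74, 7.83 and 9.30 CPM in naive lungs (log2 fold -1.04 ± 0.18, adjusted p = 0.0135). Among the partners not called, 5 had every injured lung above every naive lung (Sftpa1, Sftpd, Pdpn, Fn1 and Apoe), 2 had every injured lung below (Pianp and Sap130), where 12.3% and 10.6% of all genes tested showed these patterns, and the others overlapped. Of the 3 Sirpa partners on the list, the surfactant protein genes Sftpa1 and Sftpd had log2 fold changes of 0.35 ± 0.10 (adjusted p = 0.106) and 0.39 ± 0.11 (adjusted p = 0.115). Cd47 overlapped between groups, with 329, 353 and 292 CPM in injured and 372, 327 and 287 CPM in naive lungs (log2 fold -0.02 ± 0.12, adjusted p = 0.96).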

How the data were processed

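RNA of 6 left lungs was analysed from a table that the authors deposited. Its columns, per the file headers, are counts of reads, FPKM, normalized counts, and the authors' own log2 fold changes and p-values. STAR, HTSeq, STAR-Fusion, edgeR, DESeq2 and the build mm10 are named in the submitters' processing notes, with versions and strand setting not given in the sources used here. Normalized counts, the signal the authors deposited, were the read counts times 1 factor a library, and the deposited FPKM were recovered from counts, gene lengths and column totals, both within a relative tolerance of 1e-06.

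Counts as deposited were filtered by edgeR's filterByExpr, which left 15486 of 23194 genes, scaled by TMM and compared by edgeR's robust quasi-likelihood test (version 4.0.16, under R 4.3.3 with limma 3.58.1), two-sided and with no covariate, with Benjamini-Hochberg adjustment over all genes tested. Each SE was taken from the F statistic. As alternatives the counts were scaled by DESeq2's size factors or by library size only, filtered at 1 CPM in 3 libraries or not at all, or tested by DESeq2 1.42.0, by limma-voom, with the replicate number as a block, or with each library left out. Each lung is labelled as a separate sample. The p-values set the difference between groups against the variation between lungs, which was estimated with information shared over genes.

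Named in full are called members, the uncalled members with the 2 largest changes in each direction at 1 CPM or more, a listed set of known receptors, and at most 4 called genes in each direction of the signalling and binding-partner lists. Members outside that rule, and Syk, Vav1, Ptpn6, Ptpn11, the uncalled binding partners and single cell type markers, were named after their values were seen. The members, lists and motifs were chosen with earlier results of these data known.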

Additional observations from a re-analysis of the deposited data

How the results depend on the processing

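The number of members called higher was 16 to 18 in the fits on all libraries and 9 to 16 with 1 library left out, lowest without injured replicate 1. Of the 17 calls, 17 held in every fit on all libraries and 10 held with each library left out. Members called lower numbered 2 with no filter on low counts and 2 by DESeq2, and 1 to 2 with 1 library left out, where Cd300lg joined Clec3b. Signalling genes called higher numbered 9 with no filter, by DESeq2 and with the replicate block, 5 by limma-voom, and 2 to 7 with 1 library left out. Binding partners called higher numbered 1 with library size alone, 2 with no filter, 4 by DESeq2, 1 with the replicate block and 0 to 1 with 1 library left out. With the replicate block 17 members were called higher and 1 lower. Same-numbered lungs deviated from their group means with correlations of 0.0767, -0.0853 and 0.154, and lungs of different numbers with -0.297 to 0.282. With 3 lungs a group these values cannot decide whether lungs were paired. The main test used no pairing, as each lung is labelled as a separate sample. The log2 fold change of Clec14a ran from -0.0832 to 0.216 with 1 library left out and that of Clec1b from -0.15 to 0.49. The cause of these shifts was not tested. Members with few counts, such as Clec4g, leave wide intervals.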
